A study of Homo sapiens with 18 samples.

Results

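UM-UC-3 and T24 are established human bladder cancer cell lines, both labelled as transitional cell cancers and as wild type. Their resting difference in gene expression was taken from the control arm of an ACAT1 knockdown experiment. That arm held 3 UM-UC-3 libraries and 3 T24 libraries, numbered biological replicates 1 to 3, and all 6 came from cells that received siNC, a negative control siRNA. They were 6 of the 18 RNA-seq libraries of the series, and the other 12 carried 1 of 2 siRNAs against ACAT1 (siACAT1-1 and siACAT1-2, 3 libraries per siRNA and line). All autosomal genes of the raw count table were members of the comparison, 37901 of 39496 genes listed. Of these, 19412 passed the filter on low counts and were tested, and the other 18489 were not. Each line descends from 1 tumour, so a difference belongs to these lines and not to a class of bladder cancer. UM-UC-3 was kept in MEM and T24 in RPMI-1640, both with fetal bovine serum, so medium and line cannot be told apart. The labels do not say whether replicates were separate cultures, and the p-values then measure only the spread between these samples, which may be technical.

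Bladder cancers arise from the urothelium, the layered epithelium that lines the bladder. Its cells express simple keratins, desmosomal and tight junction proteins and, in the surface layer, uroplakins, under transcription factors such as PPARG, GATA3, FOXA1 and KLF5. Cultured bladder cancer lines keep this programme to different degrees, and some carry mesenchymal genes such as VIM and ZEB1 instead. Losses of the tumour suppressor gene CDKN2A and changes in growth factor receptors are known in this cancer.

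The control libraries held 28038644 to 34417230 counts each. Mitochondrial genes took 5.01 to 6.17% of the counts in UM-UC-3 and 3.01 to 4.67% in T24, and T24 replicate 2 was the lowest. Correlations of log2 expression across genes were 0.959 to 0.984 within a line and 0.818 to 0.849 between lines, and the first principal component, with 75.7% of the variance, separated the lines. Of the genes named in the results, more than 20% of the exon bases of VIM, ACTA2, IFITM3, ALDH1A3, DDX43 and IL6 overlap a gene on the other strand, and SNURF, SNRPN, IGF2, CD68 and AXIN2 overlap a gene on the same strand at that level. Whether the authors counted by strand is not given in the sources used here, so reads of these genes and their partners cannot be told apart. Cells were measured in bulk, in which fewer cells of a type and less RNA per cell cannot be told apart.

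The lines differed at a large share of their genes, in both directions alike. A log2 difference is UM-UC-3 minus T24 in what follows, given with its standard error (SE). Calls were made where the adjusted p was under 0.05 (edgeR quasi-likelihood test with Benjamini-Hochberg adjustment over all genes tested). In the control libraries 8572 autosomal genes were called, 44.2% of those tested. Of these, 4314 were higher in UM-UC-3 (22.2% of genes tested) and 4258 were higher in T24 (21.9%). A difference of at least 2-fold was reached by 5773 called genes (29.7%), 2838 higher in UM-UC-3 and 2935 higher in T24. At least 10-fold differences were fitted for 878 genes higher in UM-UC-3 and 1086 higher in T24. The median log2 difference over all genes tested was 0.04, so these shares and this median are the background for each gene group. Leaving out each of the 6 libraries in turn kept the call of 5870 genes in all 6 fits, 68.5% of those called.

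The same contrast was available in the ACAT1 siRNA libraries. They did not enter the control contrast but shared its model, its filter on low counts and its estimate of the spread. Between the lines with siACAT1-1, 8587 autosomal genes were called (44.2%), and with siACAT1-2 there were 8645 (44.5%). Of the 8572 genes called in the control libraries, 8490 (99.0%) had the same sign with both ACAT1 siRNAs, and 6418 (74.9%) were called with the same sign with both. Libraries of a line with the same number deviated together across siRNAs (block correlation 0.523), so these libraries are not independent of the control ones. Whether the line difference itself differed between the siRNA and control libraries depended on that number. Without it in the model edgeR called 0 genes, with 493 at an unadjusted p under 0.05. With the number within each line as added terms, edgeR called 20 (0.103%, with 1833 at an unadjusted p under 0.05), ACTA2 among them, and limma voom with the number as a random block called 0 (1511). Both blocked fits were added after seeing the data. ACAT1, the mitochondrial acetoacetyl-CoA thiolase that the series targets (chromosome 11, 108121516 to 108147776), was itself at 47.4, 46.5 and 44.1 RPKM (counts divided by gene length and library depth) in UM-UC-3 control replicates 1, 2 and 3. In T24 it was at 16.8, 14.6 and 17.1 RPKM. Every UM-UC-3 control library was above every T24 one, with a log2 difference of 1.55 (SE 0.21, adjusted p = 1.42e-05).

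Gene groups were described with lists of genes with known roles, 31 in all, of which 30 are reported, and they did not share 1 direction. Interferon response genes, cytokines, laminins, epithelial junction genes, urothelial factors and HOX genes had more members higher in T24. Growth factor receptor kinases, the cholesterol synthesis list, glycolysis genes and ribosomal protein genes had more members higher in UM-UC-3. The plot of called members sets each list beside the shares of all autosomal genes tested.

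**Figure D1:**
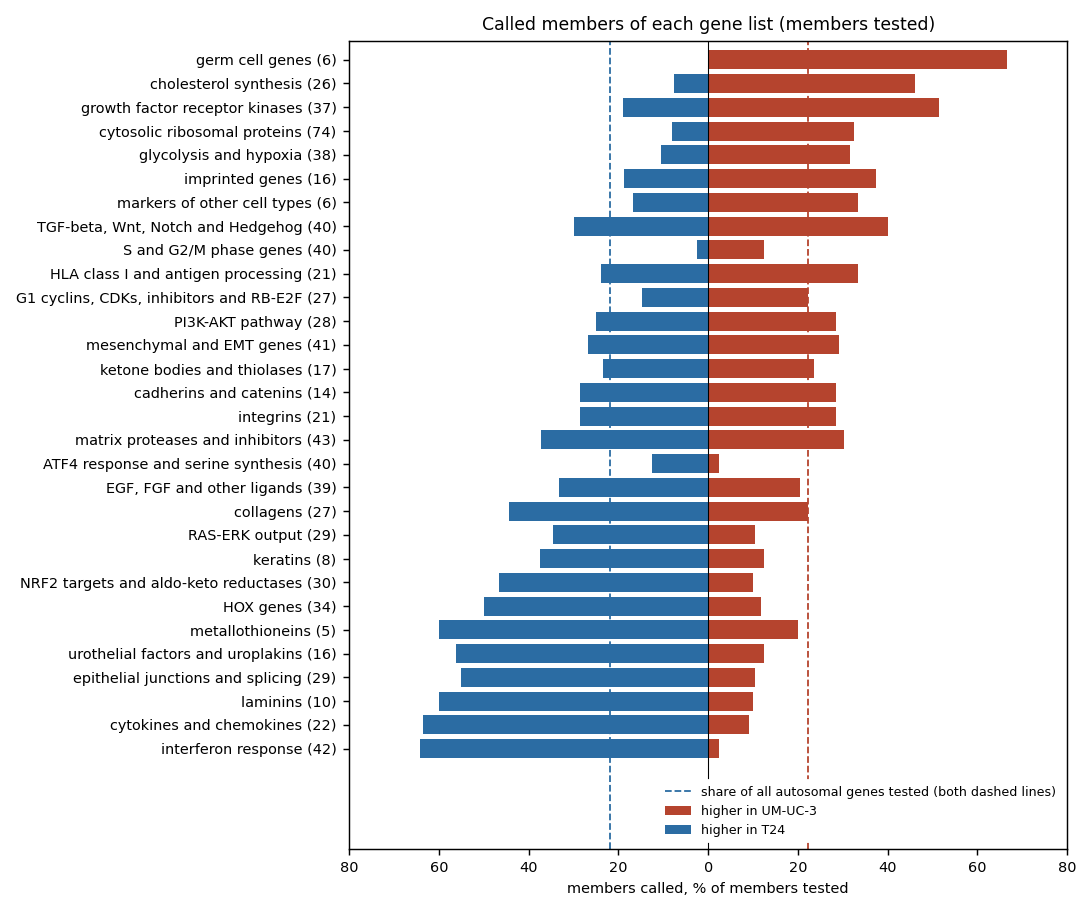
Share of each reported list's tested members that were called (% of members tested, horizontal axis), to the right for genes higher in UM-UC-3 and to the left for genes higher in T24, with the number tested in brackets and dashed lines at 22.2% and 21.9% for all autosomal genes tested. The interferon list had 27 of 42 tested members higher in T24 and 1 higher in UM-UC-3, and the receptor kinase list had 19 of 37 higher in UM-UC-3 and 7 higher in T24.

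In UM-UC-3 cells a set of neighbouring genes on 4 chromosomes had almost no reads, while all of them were read in T24. Taking only protein-coding genes with a mean of at least 1 RPKM in either line, a run was at least 3 in succession that were each under 0.1 RPKM in every library of 1 line. There were 4 such runs in UM-UC-3 and 0 in T24, and 3 of the 4 are described. RNA was measured and DNA was not, so the number of copies of these regions was not tested.

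The run on chromosome 9 (21802543 to 22009363) held MTAP, CDKN2A and CDKN2B. CDKN2A, which encodes the cell cycle inhibitor p16 and the ARF protein, had 0 counts in each UM-UC-3 control library and 1188, 615 and 1259 in T24 replicates 1, 2 and 3. That was at least 999-fold lower in UM-UC-3 (adjusted p = 1.23e-07), with the floor for a group without reads set at 3 counts over its libraries. CDKN2B, which encodes the related inhibitor p15, also had 0 counts in UM-UC-3, against 99, 330 and 259 in T24, at least 224-fold lower (adjusted p = 7.29e-06). The lines did not overlap at either gene. Runs were chosen for such gaps, so this and the adjusted p of run members are no separate result. MTAP, a methionine salvage enzyme, had 0, 2 and 2 counts in UM-UC-3 and 996, 708 and 750 in T24 (log2 difference -9.10, SE 0.51, adjusted p = 3.39e-09). The next gene on the far side, DMRTA1, had 0 counts in UM-UC-3 and 40, 18 and 34 in T24. Further out the genes were read in both lines. KLHL9 had 278, 408 and 268 counts in UM-UC-3 and 237, 279 and 235 in T24 (adjusted p = 0.166), and CAAP1 had 1038 to 1131 and 999 to 1375. FOCAD was higher in UM-UC-3 (log2 difference 1.15, SE 0.16, adjusted p = 1.76e-05).

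The run on chromosome 13 (42886388 to 43786908) held EPSTI1, DNAJC15 and ENOX1. EPSTI1, an interferon-responsive gene, had 0, 0 and 6 counts in UM-UC-3 and 253, 156 and 260 in T24 (adjusted p = 6.44e-05). DNAJC15, a mitochondrial co-chaperone, had 0, 2 and 0 counts against 354, 302 and 310, a ratio of 473 with a 95% exact counting interval of 130 to 3908. ENOX1 had 4, 2 and 0 counts against 302, 130 and 134 (adjusted p = 6.43e-07). AKAP11, next to the run, had 1254, 1172 and 1237 counts in UM-UC-3 and 1281, 1196 and 866 in T24. Its adjusted p was 0.607. A further run, on chromosome 7 (144183466 to 144380632), held CTAGE4, ARHGEF35 and ARHGEF5. ARHGEF35 had 4, 0 and 4 counts in UM-UC-3 and 4993, 5557 and 4114 in T24 (adjusted p = 1.99e-10). These genes have near-identical copies, so how reads were shared between them is uncertain.

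ETFA, with almost no reads in UM-UC-3, was in no run by this rule. It encodes a subunit of the electron transfer flavoprotein, which carries electrons from fatty acid oxidation to the respiratory chain. It had 0 counts in all 3 UM-UC-3 control libraries and 2162, 1753 and 2125 in T24, at least 1970-fold lower in UM-UC-3 (chromosome 15, 76215355 to 76311472, adjusted p = 1.65e-09). TMEM266, which overlaps ETFA and was below the level the rule asks for, had 0 counts in every UM-UC-3 library and 5, 4 and 2 in the T24 control libraries. Further out, FBXO22 (674, 686 and 494 counts in UM-UC-3, 860, 615 and 652 in T24, adjusted p = 0.605) and SCAPER (adjusted p = 0.376) were read in both lines. ETFB, the partner subunit, was at 16.5, 13.3 and 16.8 RPKM in UM-UC-3 and 10.6, 10.9 and 12.3 in T24 (adjusted p = 0.0547). In the 6 UM-UC-3 libraries with an ACAT1 siRNA, CDKN2A and CDKN2B had 0 to 2 counts, and MTAP, DNAJC15, ENOX1 and ETFA had 0 to 4. The other run members reached more there, with up to 6 counts for CTAGE4, 10 for ARHGEF35, 12 for ARHGEF5 and 14 for EPSTI1. ETFA and the genes beside the runs were chosen after their values were seen.

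**Figure D2:**
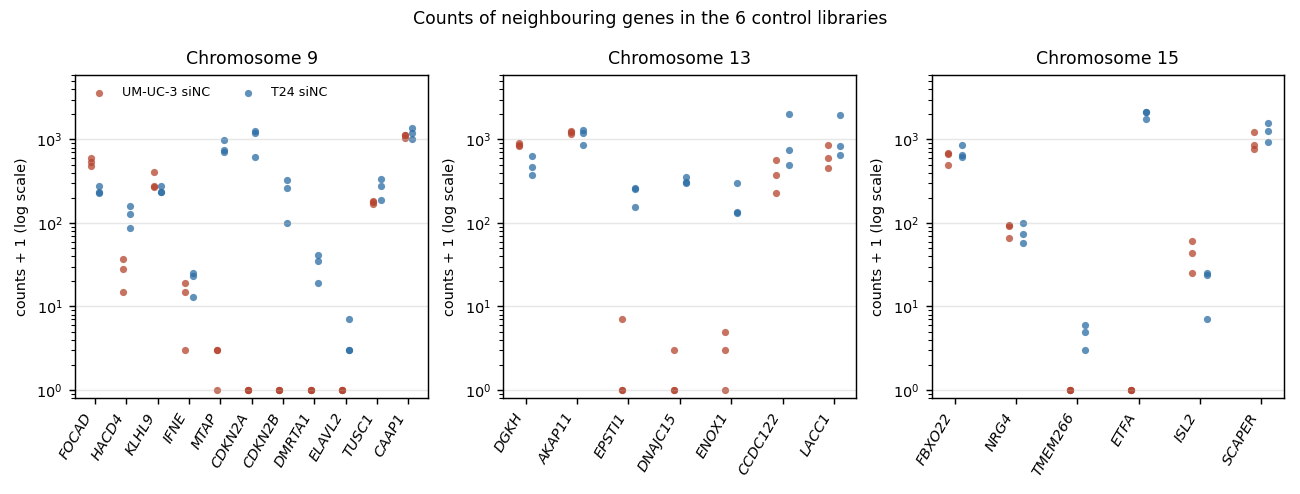
Counts plus 1 on a log axis for neighbouring genes in chromosome order around the runs on chromosomes 9 and 13 and around ETFA on chromosome 15, 1 point per control library (3 UM-UC-3, 3 T24). CDKN2A, CDKN2B and ETFA sit at 0 counts in all 3 UM-UC-3 libraries, while the outer genes of each panel were read in both lines.

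Across the genome, some genes had reads in 1 line and next to none in the other. At 3 counts or fewer in every library of 1 line and at least 100 in every library of the other, 93 autosomal genes were present in UM-UC-3 (0.245% of the 37901 listed) and 114 in T24 (0.301%). Of these, 61 and 87 were protein coding. The genes listed include 18489 that did not pass the filter on low counts, which lowers both shares. ADD2, a membrane skeleton protein of the adducin family, had 3045, 3241 and 3052 counts in UM-UC-3 and 0 in T24, at least 3181-fold higher. NCAM2, a neural cell adhesion molecule, had 1719, 1430 and 2275 counts against 2, 2 and 0. DDX43, an RNA helicase otherwise known from testis, had 2698, 2262 and 3565 counts against 2, 0 and 2. In the other direction, ANXA3, a calcium-dependent phospholipid-binding annexin, had 2, 0 and 0 counts in UM-UC-3 and 5434, 5467 and 5251 in T24, a ratio of 7902 (95% exact counting interval 2187 to 65250). FST, which encodes the activin antagonist follistatin, had 0 counts in UM-UC-3 and 3316, 3207 and 1369 in T24, at least 2574-fold. In the ACAT1 siRNA libraries of the line without reads, 92 of the 93 genes and 110 of the 114 had 10 counts or fewer in every library.

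Among genes at 10 RPKM or more, those with the widest gaps toward UM-UC-3 were of mixed function. ALDH1A1, a retinaldehyde dehydrogenase, was at 89.0, 80.9 and 75.4 RPKM in UM-UC-3 and 0.12 RPKM or less in T24 (adjusted p = 1.99e-10). CACNG8, an accessory subunit of AMPA receptors, was at 36.0, 38.8 and 49.2 RPKM against 0.05 RPKM or less (log2 difference 9.85, SE 0.55, adjusted p = 7.77e-10). UCHL1, a neuronal deubiquitinase, had 700, 799 and 930 counts against 0, 2 and 0 in T24. HAPLN1, a hyaluronan link protein, had 4331, 4465 and 3769 counts in UM-UC-3 and 10, 4 and 0 in T24, and COL23A1, a transmembrane collagen, had 1677, 1275 and 1852 against 2, 0 and 0. The 10 genes so chosen also included PLBD1, AFAP1L2, PODXL2, DDX43 and CA12. CA12, a carbonic anhydrase of the cell surface, varied within UM-UC-3, at 16.4, 24.2 and 8.53 RPKM.

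Toward T24 the 10 genes included FST, C1orf115, ETFA, MT1E, HOXC9, ANXA3, SNURF, CXCL5 and IL1B. C1orf115 had 0 counts in UM-UC-3 and 17.4, 17.2 and 24.6 RPKM in T24. None of the genes in either set of 10 overlapped between the lines. Both sets were chosen for wide gaps, so this is no separate result.

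Urothelial and epithelial genes were mostly lower in UM-UC-3. Of 16 tested urothelial factors and uroplakins, 9 were higher in T24 and 2 in UM-UC-3 (median log2 difference -1.07, against 0.04 for all genes). PPARG, a nuclear receptor of urothelial differentiation, was at 3.55, 4.15 and 4.41 RPKM in T24 and 0.09, 0.14 and 0.45 in UM-UC-3. Its log2 difference was -4.12 (SE 0.47, adjusted p = 2.68e-06), and -5.07 without UM-UC-3 replicate 3. KLF5, an epithelial zinc finger factor, was at 3.33, 7.76 and 3.88 RPKM in T24 and at 0.32 or less in UM-UC-3 (log2 difference -4.21, SE 0.48, adjusted p = 2.73e-06). TFAP2C had a log2 difference of -5.19 (SE 0.47, adjusted p = 1.83e-07), and the pioneer factor FOXA1 one of -3.94 (SE 0.71, adjusted p = 0.000259). The 2 genes higher in UM-UC-3 were SHH, the hedgehog ligand made by basal urothelium, and RARG, a retinoic acid receptor. SHH was at 0.40, 0.63 and 0.59 RPKM there and at 0.06 or less in T24 (adjusted p = 8.61e-05). RARG (log2 difference 0.98, adjusted p = 0.0217) was no longer called without UM-UC-3 replicate 2 or without T24 replicate 2.

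Neither line held the surface markers of differentiated urothelium. UPK1B and UPK3A, which encode uroplakins, had 0 counts in all 6 libraries, and UPK2 was at 0.44 to 0.51 RPKM in UM-UC-3 and 0.45 to 0.64 in T24 (adjusted p = 0.632). GATA3, a marker of luminal urothelium, was at 0.04 to 0.10 RPKM in UM-UC-3 and 0.13 to 0.37 in T24 (adjusted p = 0.0638). KRT5, the basal keratin, had 4 counts or fewer in every library. TP63, which encodes the basal cell factor p63, had 20, 24 and 40 counts in UM-UC-3 and 0, 2 and 0 in T24, a ratio of 42.9 (95% exact counting interval 11.5 to 360.3). CDH1, which encodes E-cadherin, had 0 counts in all 6. Of the keratins of simple epithelium, both lines kept KRT8 and KRT18. KRT7 was far lower in UM-UC-3 than in T24, and KRT19 was at 0.14 RPKM or less in UM-UC-3. Other epithelial genes, such as PPARG, KLF5 and the desmosomal genes below, were higher in T24.

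Keratins separated the lines at different levels. Of 8 tested keratins 3 were higher in T24 and 1 in UM-UC-3 (median -1.05). KRT7, a keratin of simple and transitional epithelia, was at 371, 140 and 316 RPKM in T24 and 3.72, 2.27 and 6.38 in UM-UC-3. That was a log2 difference of -6.05 (SE 0.69, adjusted p = 2.58e-06). KRT8 was present in both, at 310, 117 and 324 RPKM in T24 and 45.2, 36.0 and 40.5 in UM-UC-3 (log2 difference -2.60, SE 0.47, adjusted p = 0.000267). KRT18, its partner, was at 255, 159 and 293 RPKM against 161, 127 and 138, and was not called (adjusted p = 0.0774). KRT19 was at 24.5, 4.95 and 31.8 RPKM in T24 and at 0.14 or less in UM-UC-3 (adjusted p = 1.7e-05). KRT15, a keratin of basal cells, went the other way, at 8.57, 7.53 and 5.77 RPKM in UM-UC-3 and 0.79, 0.45 and 1.60 in T24 (log2 difference 2.99, SE 0.62, adjusted p = 0.000874). T24 replicate 2 was the lowest T24 library for each of these 5 keratins.

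Cell junction genes gave a similar picture with clearer gaps. Of 29 tested, 16 were higher in T24 and 3 in UM-UC-3 (median -1.22), and the desmosome stood out. DSP, which encodes desmoplakin, was at 16.3, 23.2 and 17.3 RPKM in T24 and 0.105, 0.0926 and 0.128 in UM-UC-3 (log2 difference -7.39, SE 0.29, adjusted p = 5.98e-11). DSG2, a desmosomal cadherin, was at 14.3, 15.8 and 15.6 RPKM against 1.09, 1.20 and 1.33 (log2 difference -3.61, SE 0.17, adjusted p = 1.99e-10). No library of 1 line reached the range of the other at either gene. DSC3 and DSC2, the desmocollins, each had 2 counts over the 3 UM-UC-3 libraries, with ratios of 1570 (95% exact counting interval 435 to 13000) and 346 (95.5 to 2866). EPCAM, an epithelial adhesion molecule, was at 1.13, 2.70 and 1.30 RPKM in T24 and 0.01, 0 and 0.10 in UM-UC-3 (adjusted p = 7.42e-06). OCLN, a tight junction protein (log2 difference 1.81, SE 0.43, adjusted p = 0.00269), MUC1, a membrane mucin (2.46, SE 0.49, adjusted p = 0.000699), and TJP3, with 2, 4 and 20 counts against 0, were the genes higher in UM-UC-3.

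Mesenchymal genes were split between the lines. Of 41 tested, 12 were higher in UM-UC-3 and 11 in T24 (median 0.18). VIM, which encodes vimentin, was high in both, at 249, 249 and 306 RPKM in UM-UC-3 and 211, 179 and 271 in T24 (adjusted p = 0.244). ZEB1, a repressor of epithelial genes, was at 30.8, 30.3 and 35.5 RPKM in UM-UC-3 and 12.4, 16.6 and 13.6 in T24 (log2 difference 1.23, SE 0.20, adjusted p = 0.000105). SNAI2, another such repressor, went the other way, at 0.37, 0.85 and 0.62 RPKM in UM-UC-3 and 18.9, 74.3 and 15.4 in T24. Its log2 difference was -5.79 (SE 0.70, adjusted p = 5.16e-06), and -4.83 without T24 replicate 2. THY1, a surface glycoprotein of fibroblasts, was at 5.81, 7.39 and 4.18 RPKM in UM-UC-3 and 0.04 or less in T24 (adjusted p = 1.75e-07). TGFBI, a matrix protein induced by TGF-beta, also was higher in UM-UC-3 (log2 difference 4.85, SE 0.60, adjusted p = 6.48e-06). FN1, which encodes fibronectin, was at 16.1, 10.5 and 16.2 RPKM in T24 and 0.75, 0.89 and 0.80 in UM-UC-3 (log2 difference -4.09, SE 0.38, adjusted p = 2.12e-07). MYL9, a myosin light chain of contractile cells, was at 22.35 to 27.46 RPKM in T24 and at 0.18 to 0.21 in UM-UC-3 (log2 difference -6.86, SE 0.38, adjusted p = 7.77e-10).

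The cadherins differed by member. Of 14 tested cadherins and catenins, 4 were higher in each line (median -0.27), and the 4 higher in UM-UC-3 became 2 without T24 replicate 3. CDH2, which encodes N-cadherin, was at 14.78, 8.25 and 14.96 RPKM in T24 and 4.15, 3.89 and 4.05 in UM-UC-3 (log2 difference -1.62, SE 0.32, adjusted p = 0.000651). CDH13, a cadherin without a cytoplasmic tail, had 2, 2 and 0 counts in UM-UC-3 and 563, 527 and 725 in T24 (log2 difference -8.67, SE 0.48, adjusted p = 7.81e-10). CDH18 and CDH12, cadherins known from neural tissue, were the reverse. CDH18 had 271, 211 and 317 counts in UM-UC-3 and 2 in each T24 library (log2 difference 7.003, SE 0.51, adjusted p = 1.57e-08), and CDH12 had 156, 122 and 121 against 4, 0 and 0 (adjusted p = 3.26e-06). CTNNB1, which encodes beta-catenin, was not called (adjusted p = 0.377).

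**Figure D3:**
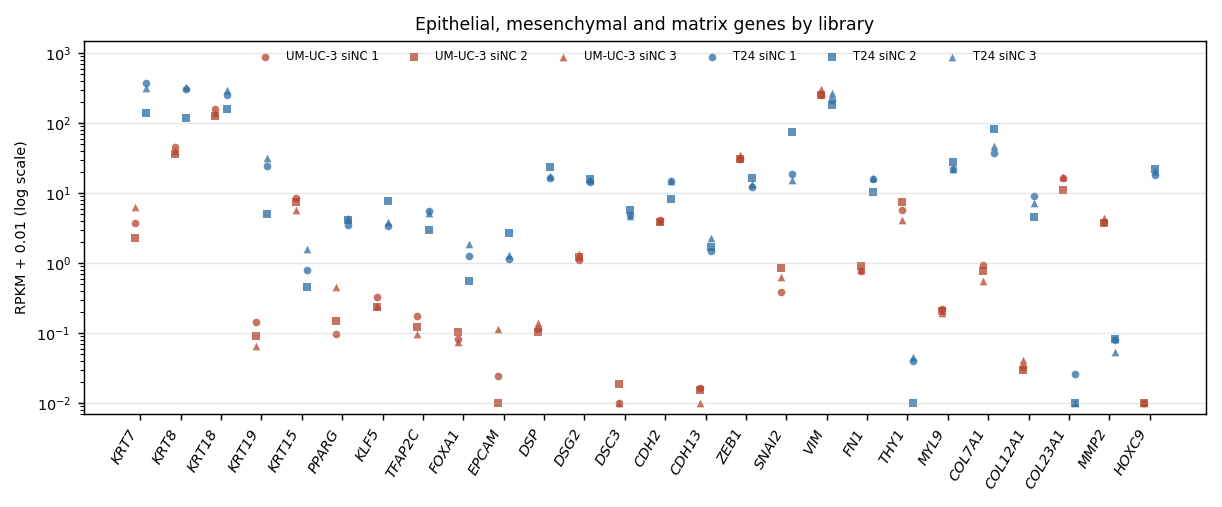
RPKM plus 0.01 on a log axis of genes of epithelial identity, adhesion, mesenchymal state and matrix, 1 point per control library (3 UM-UC-3, 3 T24). DSP, DSG2, KRT7 and MYL9 are high in T24, THY1, MMP2 and COL23A1 are high in UM-UC-3, and the points for VIM and KRT18 lie close together.

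Matrix genes differed by chain rather than as a family. Of 27 tested collagens, 12 were higher in T24 and 6 in UM-UC-3 (median -0.40). COL7A1, the anchoring fibril collagen, was at 37.0, 81.2 and 47.2 RPKM in T24 and 0.93, 0.76 and 0.55 in UM-UC-3 (log2 difference -6.14, SE 0.37, adjusted p = 1.89e-09). COL12A1 had 8, 8 and 12 counts in UM-UC-3 and 3880, 1594 and 2542 in T24 (log2 difference -8.10, SE 0.51, adjusted p = 2.82e-09). The chains of type V collagen were split. COL5A2 was higher in T24 (log2 difference -4.86, SE 0.46, adjusted p = 3.34e-07), while COL5A1 was at 1.75, 1.68 and 2.00 RPKM in UM-UC-3 and 0.04 to 0.06 in T24 (log2 difference 5.29, SE 0.27, adjusted p = 4.19e-10). So were those of type VI, with COL6A1 (log2 difference -3.17, SE 0.30, adjusted p = 2.68e-07) and COL6A2 (-2.32, SE 0.25, adjusted p = 1.28e-06) higher in T24 and COL6A3 (2.01, SE 0.29, adjusted p = 2.84e-05) higher in UM-UC-3. COL1A1 and COL1A2 were not called (adjusted p of 0.415 and 0.689).

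Laminins, the chains of basement membrane, were mostly higher in T24, 6 of 10 tested against 1 in UM-UC-3 (median -1.48). LAMA3 and LAMB3 were among the 6. LAMB3 was at 97.9, 641 and 141 RPKM in T24 and 18.7, 13.5 and 24.6 in UM-UC-3. Its log2 difference was -3.88 (SE 0.64, adjusted p = 0.00012), and -2.68 without T24 replicate 2, the library far above the others. LAMA3 had a count ratio of 264 (95% exact counting interval 72.8 to 2187). LAMA1 was the chain higher in UM-UC-3 (log2 difference 1.69, SE 0.36, adjusted p = 0.0012).

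Integrins were balanced, with 6 of 21 tested higher in each line (median 0.08). ITGB4, a hemidesmosomal integrin chain, had 0 counts in UM-UC-3 and 15, 23 and 51 in T24, at least 29.0-fold. ITGB1, the common beta chain, was higher in UM-UC-3, at 203, 210 and 201 RPKM against 83.3, 111 and 89.8 (log2 difference 1.16, SE 0.13, adjusted p = 2.36e-06). ITGB5, a vitronectin receptor chain, was also higher there (1.32, SE 0.21, adjusted p = 9.57e-05).

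Among matrix proteases and their inhibitors, 16 of 43 tested were higher in T24 and 13 in UM-UC-3 (median -0.16). MMP2, gelatinase A, was at 3.83, 3.72 and 4.41 RPKM in UM-UC-3 and at 0.07 or less in T24 (log2 difference 6.02, SE 0.30, adjusted p = 4.19e-10). MMP9, gelatinase B (log2 difference 3.35, SE 0.36, adjusted p = 1.4e-06), and MMP19 (3.32, SE 0.24, adjusted p = 1.52e-08) were higher in the same line. MMP11 and MMP14 were higher in T24. MMP11 had 0, 4 and 0 counts in UM-UC-3 and 16, 16 and 26 in T24 (-3.73, SE 0.90, adjusted p = 0.00367). MMP14, the membrane-bound activator of MMP2, was at 43.3, 43.4 and 40.8 RPKM in UM-UC-3 and 49.3, 73.4 and 80.1 in T24 (-0.61, SE 0.19, adjusted p = 0.0166), a call lost without T24 replicate 3 and without UM-UC-3 replicate 3. SERPINB2, an inhibitor of plasminogen activation, was at 1.10, 49.7 and 0.93 RPKM in T24 and near 0 in UM-UC-3. Its adjusted p was 0.00149, and its log2 difference of -9.85 was -5.90 without T24 replicate 2 (adjusted p = 0.0139). The cysteine protease cathepsin L (CTSL) was higher in T24 as well (log2 difference -1.88, SE 0.19, adjusted p = 7.93e-07).

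HOX genes, which mark position along the body axis, differed by cluster. Of 34 tested, 17 were higher in T24 and 4 in UM-UC-3 (median -1.004). The 4 became 2 without T24 replicate 2. The HOXC cluster on chromosome 12 had 6 of 7 tested genes higher in T24 and 0 in UM-UC-3, with summed means of 33.1 RPKM in T24 and 4.84 in UM-UC-3. HOXC9 made up most of it, at 17.9, 22.1 and 20.5 RPKM in T24 and 0 counts in UM-UC-3, at least 994-fold (adjusted p = 6.99e-10). HOXC8 was read in both, at 5.75, 5.50 and 7.12 RPKM in T24 and 1.88, 2.48 and 2.12 in UM-UC-3 (log2 difference -1.46, SE 0.27, adjusted p = 0.000379). The HOXD cluster on chromosome 2 had 5 of 8 higher in T24 and 1 in UM-UC-3, and the HOXA cluster on chromosome 7 had 4 of 10 and 1. HOXD10 had 0 counts in UM-UC-3 and 156, 98 and 124 in T24, at least 123-fold. HOXD13, at the end of the same cluster, was the reverse, with 48, 36 and 46 counts in UM-UC-3 and 0 in T24, at least 44.3-fold. The HOXB cluster on chromosome 17 was the most highly expressed in both lines, at 71.4 RPKM summed in UM-UC-3 and 86.5 in T24, with 2 of 9 tested genes higher in each. HOXB13, its outermost gene, had 0 counts in UM-UC-3 and 70, 29 and 82 in T24.

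Growth factor receptors were more often higher in UM-UC-3. Of 37 tested receptor kinases, 19 were higher there and 7 in T24 (median 0.54). Most were weakly expressed, with 30 of the 46 listed under 1 RPKM in all 6 libraries. Their summed level overlapped, at 96.7 to 111.7 RPKM in UM-UC-3 and 102.3 to 126.2 in T24. EGFR, the receptor for EGF and amphiregulin, was on the T24 side at 17.6, 25.7 and 18.6 RPKM against 4.64, 3.56 and 4.84 (log2 difference -2.20, SE 0.26, adjusted p = 4.74e-06). ERBB2, its relative, followed with a smaller gap (log2 difference -0.79, SE 0.14, adjusted p = 0.000205). FGFR1, FGFR2 and FGFR3 were higher in UM-UC-3. FGFR1 was at 4.27, 4.36 and 4.28 RPKM against 1.67, 2.35 and 1.62 in T24 (log2 difference 1.25, SE 0.15, adjusted p = 4.51e-06). FGFR3, a receptor often altered in bladder cancer, was low in both, at 0.40, 0.73 and 0.21 RPKM in UM-UC-3 and 0.12 or less in T24 (adjusted p = 0.00663), and FGFR2 had 12, 28 and 16 counts against 0. FLT4, a VEGF receptor, was higher in UM-UC-3 (log2 difference 5.44, SE 0.71, adjusted p = 2.21e-05) and MST1R, the receptor for macrophage-stimulating protein, in T24 (-5.14, SE 0.62, adjusted p = 9.98e-06).

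Ligands went more often to T24, 13 of 39 tested against 8 (median -0.81, and 0.12 without T24 replicate 2). IGF2, a fetal growth factor, was at 66.6, 87.2 and 45.7 RPKM in UM-UC-3 and 0.51, 1.29 and 0.74 in T24 (log2 difference 6.37, SE 0.50, adjusted p = 4.1e-08). BMP6, a bone morphogenetic protein, was also higher in UM-UC-3 (5.60, SE 0.57, adjusted p = 6.66e-07). FGF5 was at 7.36, 3.89 and 3.77 RPKM in T24 and 0.22 or less in UM-UC-3 (log2 difference -4.83, SE 0.54, adjusted p = 2.11e-06). AREG, which encodes amphiregulin, was at 3.70, 77.2 and 6.88 RPKM in T24 and 0.34, 0.27 and 0.47 in UM-UC-3. Its log2 difference was -6.24 (SE 1.34, adjusted p = 0.0012), and -3.88 without T24 replicate 2 (adjusted p = 0.0079). INHBA, the activin A subunit that follistatin binds, had the same profile in T24, at 7.03, 74.0 and 6.43 RPKM, and was at 0.09 or less in UM-UC-3 (log2 difference -8.51, SE 1.16, adjusted p = 1.76e-05, and -6.52 without T24 replicate 2).

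Of 29 genes of RAS and ERK output, 10 were higher in T24 and 3 in UM-UC-3 (median -0.29). The 10 became 6 without T24 replicate 2, and the 3 became 1 without T24 replicate 3. HRAS was at 118, 87.8 and 135 RPKM in T24 and 51.1, 51.0 and 44.1 in UM-UC-3 (log2 difference -1.18, SE 0.23, adjusted p = 0.00057). DUSP4, a phosphatase of the pathway, was higher in UM-UC-3 (2.60, SE 0.32, adjusted p = 6.19e-06). MYC was at 39.5, 18.9 and 31.5 RPKM in UM-UC-3 and 9.69, 32.6 and 14.4 in T24 and was not called (adjusted p = 0.224).

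Of 28 PI3K pathway genes, 8 were higher in UM-UC-3 and 7 in T24 (median 0.02), near the background. The 8 became 5, 5 and 4 without UM-UC-3 replicate 1, UM-UC-3 replicate 3 and T24 replicate 3. The PI3K subunits differed. The catalytic subunit PIK3CD was at 3.33, 3.65 and 4.05 RPKM in T24 and 0.59, 0.44 and 0.66 in UM-UC-3 (log2 difference -2.65, SE 0.23, adjusted p = 1.34e-07), and the regulatory subunit PIK3R3 was at 3.07, 4.71 and 4.41 RPKM in UM-UC-3 and 0.58, 0.18 and 0.38 in T24 (3.43, SE 0.68, adjusted p = 0.000598).

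Genes of the G1 phase differed at single members. Of 27 cyclins, kinases, inhibitors and RB-E2F genes, 6 were higher in UM-UC-3 and 4 in T24 (median -0.17), and the 6 became 3 without T24 replicate 2. CDKN2A and CDKN2B, described above, were 2 of the 4. CCND2, which encodes cyclin D2, was at 6.29, 4.37 and 8.25 RPKM in UM-UC-3 and at 0.02 or less in T24 (adjusted p = 2.78e-09). CCND1, which encodes cyclin D1, was high in both, at 104, 102 and 71.7 RPKM against 122, 72.4 and 125 (adjusted p = 0.679). CDKN1B, which encodes the inhibitor p27, was higher in UM-UC-3 (log2 difference 1.43, SE 0.24, adjusted p = 0.000136), and E2F7, a repressor of the E2F family, in T24 (-2.19, SE 0.40, adjusted p = 0.000305). RB1 was at 3.14, 3.34 and 2.37 RPKM in UM-UC-3 and 3.27, 4.07 and 2.98 in T24 (adjusted p = 0.513).

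Of 40 tested genes of the S and G2/M phases, 5 were higher in UM-UC-3 and 1 in T24 (median 0.37), but without the filter on low counts the 5 became 12 and the 1 became 2. The 5 became 3 without UM-UC-3 replicate 1 or 2 or T24 replicate 2 or 3, and the 1, SLBP, became 0 without UM-UC-3 replicate 1 or 3 or T24 replicate 1. CCNB2, a mitotic cyclin, was at 95.4, 94.6 and 80.6 RPKM in UM-UC-3 and 31.6, 18.8 and 32.2 in T24 (log2 difference 1.75, SE 0.41, adjusted p = 0.00239). KIF23, a kinesin of cytokinesis, was similar (1.70, SE 0.36, adjusted p = 0.001). MKI67, the proliferation marker, was at 134, 138 and 86.8 RPKM in UM-UC-3 and 117, 49.2 and 98.0 in T24 (adjusted p = 0.449).

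Cytokine and chemokine genes were where the lines stood far apart and where 1 library stood apart within T24. Interleukin-1 acts on neighbouring cells through NF-kappaB, and IL6, CXCL8 and the other CXC chemokines are known targets of that factor. Of 22 tested, 14 were higher in T24 and 2 in UM-UC-3 (median -3.98). Without T24 replicate 2 the 14 became 11 and the median -2.20. Promoter sequences of 4 members are shown because they share a letter pattern of NF-kappaB sites while their genes differ in level. Each is the 100 bases upstream of the gene start from RefSeq (GRCh38.p14), with matches in capitals to GGG followed by any 2 bases and TTTCC. The sequences are CXCL1 at chr4:73869293-73869392, plus strand, CXCL5 at chr4:73998678-73998777, minus strand, CXCL6 at chr4:73836578-73836677, plus strand, and IL6 at chr7:22727100-22727199, plus strand.
CXCL1: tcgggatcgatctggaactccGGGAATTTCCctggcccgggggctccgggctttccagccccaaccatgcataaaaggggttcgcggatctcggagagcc
CXCL5: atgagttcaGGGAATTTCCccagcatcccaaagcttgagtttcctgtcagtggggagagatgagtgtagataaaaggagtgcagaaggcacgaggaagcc
CXCL6: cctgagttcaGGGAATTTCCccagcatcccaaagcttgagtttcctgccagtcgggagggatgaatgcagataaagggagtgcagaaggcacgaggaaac
IL6: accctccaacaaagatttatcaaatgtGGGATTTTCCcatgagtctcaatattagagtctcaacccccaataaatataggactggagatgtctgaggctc

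The pattern was searched on both strands from 250 bases before to 50 after the start. It was held by 8 of 23 cytokine genes with a RefSeq entry (CCL20, CXCL1, CXCL2, CXCL3, CXCL5, CXCL6, IL32 and IL6) and by 670 of 35114 promoters in all (1.91%). The sequences of CXCL1, CXCL2 and CXCL3 are near-identical, as are those of CXCL5 and CXCL6, so the 8 are not separate matches. A match is a description of letters, and binding was not measured. These promoters were chosen after the values of the genes were seen.

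IL1B, interleukin-1 beta, was at 13.4, 289 and 40.2 RPKM in T24 replicates 1, 2 and 3 and at 0.02, 0.04 and 0.02 in UM-UC-3. IL1A was at 4.24, 106 and 16.1 RPKM against 0.03 or less. Both were far above UM-UC-3 in every T24 library, and both were highest in T24 replicate 2. The log2 differences were -11.81 for IL1B (SE 1.68, adjusted p = 2.84e-05) and -10.77 for IL1A (SE 1.65, adjusted p = 6.11e-05), and -9.81 and -8.79 without T24 replicate 2.

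IL6 was at 1.53, 100 and 2.84 RPKM in T24 and 0.07, 0.03 and 0.16 in UM-UC-3. CXCL8, the neutrophil chemokine IL-8, was at 16.9, 470 and 12.9 RPKM in T24 and 1.68, 1.73 and 0.46 in UM-UC-3. The T24 library numbered 2 again stood above the other two, and no T24 library overlapped UM-UC-3. Without it the log2 difference of IL6 went from -8.55 (adjusted p = 0.00265) to -4.66 (adjusted p = 0.0293) and that of CXCL8 from -6.90 (adjusted p = 0.00208) to -3.56 (adjusted p = 0.0197).

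Of the chemokines whose promoters are shown, CXCL1 was at 78.9, 396 and 54.2 RPKM in T24 and 11.4, 16.9 and 6.70 in UM-UC-3 (log2 difference -3.83, SE 0.77, adjusted p = 0.000753, and -2.55 without T24 replicate 2). CXCL5 had 0, 0 and 2 counts in UM-UC-3 and 851, 7482 and 899 in T24, a ratio of 4516 (95% exact counting interval 1250 to 37300). CXCL6, with nearly the same letters upstream as CXCL5, was between 0.26 and 0.91 RPKM in all 6 libraries (adjusted p = 0.187). For CXCL2 and CXCL3 the calls (adjusted p of 0.00861 and 0.0235) were lost without T24 replicate 2 (0.158 and 0.68), and that of CXCL3 also without each UM-UC-3 replicate. CXCL1, CXCL2 and CXCL3 are close copies of one another, so the split of reads between them is uncertain.

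The 2 members higher in UM-UC-3 were CCL2 and CSF1, which attract and maintain monocytes and macrophages. CCL2 was at 7.47, 5.55 and 6.89 RPKM there and had 0 counts in T24, at least 408-fold (adjusted p = 3.62e-08). CSF1 was at 4.36, 5.17 and 5.90 RPKM against 0.92, 2.15 and 1.29 (log2 difference 1.89, SE 0.27, adjusted p = 2.84e-05).

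The library numbered 2 was also high for these genes in T24 cells with ACAT1 siRNAs. Of the 14 members higher in T24, replicate 2 was the highest of the 3 libraries for 14 with siNC, 13 with siACAT1-1 and 13 with siACAT1-2, the exception being TNF. The 14 were called with siNC replicate 2 included, so the siNC count is partly fixed by that choice. Without that library 11 members of the list were called higher in T24. The share of all genes highest in replicate 2 was not counted. IL6 was at 3.34, 91.4 and 5.53 RPKM with siACAT1-1 and 8.65, 140 and 12.3 with siACAT1-2. What set replicate 2 apart was not tested. SNAI2, LAMB3, AREG, INHBA and SERPINB2, above, were also highest in that library, and KRT7, KRT8 and KRT19 were lowest.

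**Figure D4:**
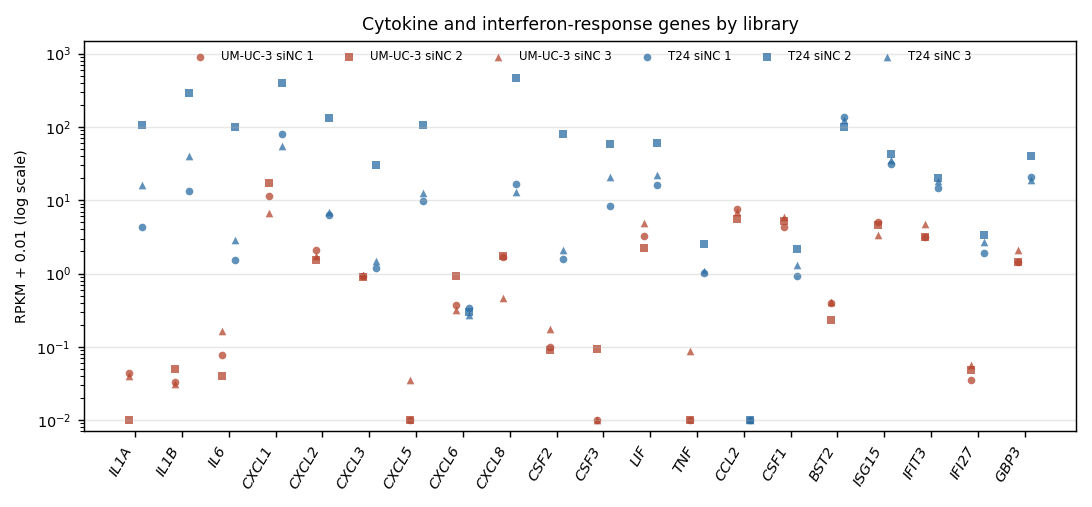
RPKM plus 0.01 on a log axis of cytokine and interferon response genes, 1 point per control library, with colour for the line and shape for the replicate (T24 replicate 2 as blue squares). IL6, CXCL8 and CXCL2 are at 100, 470 and 130 RPKM in T24 replicate 2 and at or under 16.9 in the other T24 libraries, while BST2, ISG15 and IFIT3 keep the T24 libraries close together.

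Interferon response genes were mostly higher in T24, several of them without that spread. Of 42 tested, 27 were higher in T24 and 1 in UM-UC-3 (median -1.69). BST2, which encodes the antiviral membrane protein tetherin, was at 135, 100 and 126 RPKM in T24 and 0.38, 0.22 and 0.41 in UM-UC-3 (log2 difference -8.44, SE 0.49, adjusted p = 1.31e-09). ISG15, a ubiquitin-like modifier, was at 31.2, 43.3 and 35.7 RPKM against 5.04, 4.60 and 3.37 (log2 difference -3.03, SE 0.28, adjusted p = 2.88e-07). IFIT3 (-2.23, SE 0.20, adjusted p = 2.16e-07), IFI27 (-6.07, SE 0.55, adjusted p = 1.81e-07) and the guanylate-binding protein gene GBP3 (-3.96, SE 0.31, adjusted p = 4.12e-08) had the same direction. T24 replicate 2 lay near the other T24 libraries at BST2, ISG15, IFIT3 and IFI27 and was at 40.1 RPKM against 20.5 and 19.1 at GBP3. IFIT1 was lowest in that library, at 3.81, 1.68 and 5.20 RPKM in T24 replicates 1, 2 and 3 (adjusted p = 0.0469). Of the fits with 1 library left out, only that without T24 replicate 2 kept the call of IFIT1. DHX58 was also lowest in T24 replicate 2, at 0.35, 0.27 and 0.77 RPKM. Other members did not separate the lines. OAS1 (adjusted p = 0.611), OAS3 (adjusted p = 0.389) and IFI6 (adjusted p = 0.386) were not called. The member higher in UM-UC-3, IFITM3 (1.14, adjusted p = 0.0278), was no longer called without UM-UC-3 replicate 2 or 3 or T24 replicate 1 or 2.

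HLA class I genes and antigen processing were split, with 7 of 21 tested higher in UM-UC-3 and 5 in T24 (median 0.23). The 7 became 4 without T24 replicate 2 or 3, and the 5 became 3 without UM-UC-3 replicate 2. HLA-C was at 67.9, 68.3 and 93.0 RPKM in UM-UC-3 and 31.6, 44.9 and 37.1 in T24 (log2 difference 1.06, SE 0.18, adjusted p = 0.000152). B2M, the shared light chain, was at 17.1 to 20.4 RPKM and 16.1 to 21.6 (adjusted p = 0.961). HLA alleles differ between people and reads of the HLA genes can be shared, so the HLA values are uncertain.

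In metabolism, genes of ketone bodies and thiolases, ACAT1 among them, were called about as often as all genes in each direction. Ketone bodies are made from acetoacetyl-CoA and broken down back to it, and ACAT1 takes part in both and in isoleucine breakdown. Of 17 tested genes of ketone bodies and thiolases, 4 were higher in each line (23.5%, median 0.24), ACAT1 included. The shares of all autosomal genes tested were 22.2% and 21.9%. ACAA2, another mitochondrial thiolase, was at 12.3, 12.4 and 13.5 RPKM in UM-UC-3 and 2.05, 2.69 and 2.57 in T24 (log2 difference 2.44, SE 0.18, adjusted p = 2.58e-08). HADHB, the thiolase of long-chain fatty acid oxidation, was also higher in UM-UC-3 (0.87, SE 0.16, adjusted p = 0.000324). AACS, which activates acetoacetate in the cytosol, was at 2.92, 2.71 and 3.04 RPKM in T24 and 0.95, 1.03 and 1.00 in UM-UC-3 (-1.49, SE 0.15, adjusted p = 6.61e-07). OXCT1, the enzyme that uses ketone bodies in mitochondria, was at 10.2, 12.4 and 10.6 RPKM in UM-UC-3 and 11.1, 8.71 and 9.14 in T24 (adjusted p = 0.306). The lactate and ketone transporter gene SLC16A3 was at 8.64, 6.84 and 9.69 RPKM in T24 and 0.45, 0.74 and 0.33 in UM-UC-3 (-4.00, SE 0.41, adjusted p = 8.32e-07).

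Genes of the cholesterol synthesis list were more often higher in UM-UC-3, 12 of 26 tested against 2 in T24 (median 0.63). The list also held genes of fatty acid metabolism, and ACACA and SCD were among the 12. The 12 became 10 without T24 replicate 2, and 8 at the lowest over the 14 alternatives. HMGCS1, which makes the precursor HMG-CoA (log2 difference 1.23, SE 0.29, adjusted p = 0.00212), DHCR7 (1.93, SE 0.43, adjusted p = 0.00146) and INSIG1, the sterol sensor (2.23, SE 0.44, adjusted p = 0.000549), were higher in UM-UC-3, as was the transcription factor gene SREBF2 (1.25, SE 0.28, adjusted p = 0.0016). The 2 higher in T24 were LSS (-1.12, adjusted p = 0.0186) and FDPS (-0.80, adjusted p = 0.0135). Neither was called without UM-UC-3 replicate 3, and LSS was not called without T24 replicate 2.

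Of 38 tested genes of glycolysis and hypoxia, 12 were higher in UM-UC-3 and 4 in T24 (median 0.53). The hexokinases were exchanged. HK1 was at 49.4, 54.5 and 46.0 RPKM in T24 and 4.09, 3.99 and 6.57 in UM-UC-3 (log2 difference -3.31, SE 0.30, adjusted p = 1.8e-07), and HK2 was at 12.6, 11.4 and 12.7 RPKM in UM-UC-3 and 4.60, 3.32 and 3.26 in T24 (1.74, SE 0.30, adjusted p = 0.000156). HIF1A was higher in T24 (-1.23, SE 0.26, adjusted p = 0.00121). LDHA, lactate dehydrogenase A, was at 143, 178 and 67.0 RPKM against 96.1, 42.9 and 92.5 and was not called (adjusted p = 0.274). Of 40 tested genes of the ATF4 response and serine synthesis, 5 were higher in T24 and 1 in UM-UC-3 (median -0.14), but without the filter on low counts these became 15 and 9. The 5 became 3 without UM-UC-3 replicate 2 or T24 replicate 3, and the 1, the amino acid transporter gene SLC38A2 (1.22, SE 0.28, adjusted p = 0.00205), became 2 without replicate 2 of either line. ATF4 itself spread widely, at 265, 141 and 336 RPKM in UM-UC-3 and 102, 303 and 321 in T24 (adjusted p = 0.891).

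NRF2 targets and aldo-keto reductases, which detoxify aldehydes and quinones, were higher in T24 for 14 of 30 tested and in UM-UC-3 for 3 (median -0.94). NQO1, a quinone reductase, was at 84.7, 49.0 and 102 RPKM in T24 and 22.2, 25.5 and 28.0 in UM-UC-3 (log2 difference -1.60, SE 0.40, adjusted p = 0.00365). AKR1C1 (-5.26, SE 0.69, adjusted p = 1.29e-05) and AKR1C3 (-4.35, SE 0.72, adjusted p = 0.000134) were higher in T24, though close copies in the AKR1C family make their split uncertain. AKR1B10 was the reverse, with 88, 80 and 52 counts in UM-UC-3 and 0 in T24, at least 74.95-fold. The aldehyde dehydrogenases that make retinoic acid were exchanged. ALDH1A3 was at 24.1, 22.4 and 37.8 RPKM in T24 and at 0.08 or less in UM-UC-3 (-9.04, SE 0.53, adjusted p = 1.5e-09), against the ALDH1A1 values given above for UM-UC-3.

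Metallothioneins, small zinc-binding proteins, differed by member. Of 5 tested, 3 were higher in T24 and 1 in UM-UC-3, with a median of -6.20, or -3.19 with the members that had 0 counts in 1 line set to their bound. MT1E was at 32.1, 26.3 and 37.7 RPKM in T24 and had 0 counts in UM-UC-3, at least 997-fold. MT1X was at 1.90, 2.25 and 1.77 RPKM in UM-UC-3 and 0.38, 0.70 and 0.44 in T24 (log2 difference 2.02, SE 0.41, adjusted p = 0.000786). MT2A was the most abundant and was not called, at 597, 512 and 471 RPKM against 459, 658 and 662 (adjusted p = 0.773).

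Imprinted genes, normally read from 1 parental copy, were present in 1 line and nearly absent from the other in several cases. Of 16 tested, 6 were higher in UM-UC-3 and 3 in T24 (median 0.34). H19, the noncoding neighbour of IGF2 on chromosome 11, was at 9.76, 13.7 and 14.8 RPKM in UM-UC-3 and 0.35, 0.08 and 0.23 in T24 (log2 difference 5.86, SE 0.58, adjusted p = 5.08e-07, and 5.41 to 6.46 with 1 library left out). IGF2, above, was also high in UM-UC-3. KCNQ1OT1, the antisense RNA of the next imprinted domain, had 148, 160 and 163 counts in UM-UC-3 and 0, 0 and 2 in T24, a ratio of 241 (95% exact counting interval 66.3 to 1990). PLAGL1, an imprinted zinc finger gene, had 339, 337 and 373 counts against 0, 4 and 0 (adjusted p = 7.49e-08). SNRPN, whose promoter lies in the Prader-Willi imprinting centre, was the reverse, with 0 counts in UM-UC-3 and 710, 674 and 952 in T24, at least 762-fold. SNURF shares that transcript. Reads were not separated by parental copy.

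Of 21 autosomal germ cell genes, 6 were tested, and 4 were higher in UM-UC-3 and 0 in T24 (median 1.26). DDX43, above, had the highest level, and PRAME had 28, 22 and 14 counts against 0, at least 21.8-fold.

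Developmental signalling genes were called often in both directions, 16 of 40 tested higher in UM-UC-3 and 12 in T24 (median 0.32). FZD6, a Wnt receptor, had 0, 4 and 0 counts in UM-UC-3 and 3507, 4176 and 3226 in T24 (adjusted p = 4.38e-10). DKK1, a secreted Wnt inhibitor, was at 28.1, 15.5 and 15.6 RPKM in T24 and 0.26, 0.08 and 0.06 in UM-UC-3 (adjusted p = 3.93e-08), and its relative DKK3 was also higher in T24 (log2 difference -2.77, SE 0.20, adjusted p = 1.28e-08). SFRP1, another inhibitor, had 68, 142 and 38 counts in UM-UC-3 and 2, 0 and 0 in T24, a ratio of 127 (95% exact counting interval 34.7 to 1050). AXIN2, a known target of Wnt signalling, was at 0.58, 0.68 and 0.40 RPKM in UM-UC-3 and 0.19, 0.12 and 0.18 in T24 (1.80, SE 0.39, adjusted p = 0.00131). In the Hedgehog pathway HHIP, an inhibitor that the pathway induces, was higher in UM-UC-3 (5.02, SE 0.54, adjusted p = 1.26e-06), as was the ligand SHH above, while the transducer SMO was higher in T24 (-2.40, SE 0.46, adjusted p = 0.000502). GLI1 was low in both and not called (adjusted p = 0.351). Of the TGF-beta receptors, TGFBR1 was higher in T24 (-1.01, SE 0.15, adjusted p = 4.58e-05).

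The differences were not spread evenly over chromosomes. On chromosome 9 the median log2 difference was -0.61, with 356 of 792 tested genes higher in T24 (45.0%) and 85 in UM-UC-3 (10.7%). Chromosome 16 (median -0.49, 357 of 982 higher in T24 and 92 in UM-UC-3) and chromosome 20 (median -0.38, 172 of 515 and 59) leaned the same way. Chromosome 6 (median 0.35, 300 of 969 higher in UM-UC-3 and 128 in T24), chromosome 11 (median 0.34, 372 of 1123 and 127) and chromosome 15 (median 0.33, 235 of 717 and 152) leaned toward UM-UC-3. Chromosome 7 lay at 0.00. In the ACAT1 siRNA libraries the medians of chromosome 9 were -0.65 and -0.61, and those of chromosome 11 were 0.39 and 0.36. Neighbouring genes are not independent, and copy number was not measured.

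**Figure D5:**
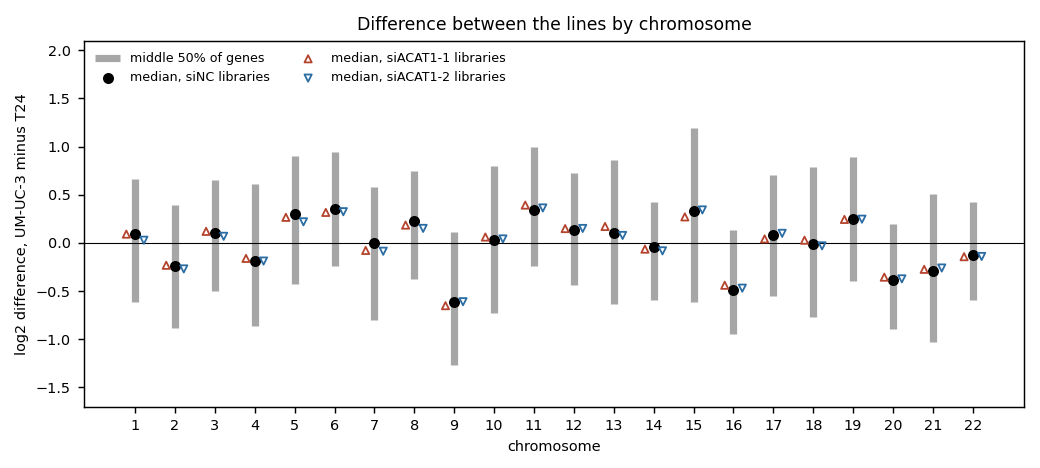
Median log2 difference of tested genes on each autosome (vertical axis, UM-UC-3 minus T24), with bars over the middle 50% of genes and separate marks for the medians in the siACAT1-1 and siACAT1-2 libraries. Chromosomes 9 and 16 lie lowest, at -0.61 and -0.49, chromosomes 6 and 11 highest, at 0.35 and 0.34, and the knockdown medians fall close to the control ones.

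Within chromosomes, medians were also taken over windows of 25 neighbouring protein-coding genes, 12036 windows in all, and the most extreme are given as a description. The lowest lay among zinc finger genes on chromosome 19 from ZNF480 to ZNF331 (52297177 to 53580269, median -1.45, 16 genes higher in T24 and 1 in UM-UC-3). Others were on chromosome 9 from SLC35D2 to ALG2 (96320706 to 99221956, 22 higher in T24 and 0 in UM-UC-3) and on chromosome 5 in the protocadherin clusters from PCDHB9 to PCDHGA12 (141187127 to 141512981, median -1.40, 23 and 0). The gamma protocadherins share exons, so their counts are not separate. The highest were 3 windows of chromosome 15 between NEDD4 and KIF23. In that from CA12 to DPP8 (63321378 to 65517704, median 1.58) 18 genes were higher in UM-UC-3 and 0 in T24, and in that from NEDD4 to TPM1 (55826922 to 63071915, median 1.56) there were 22 and 2. A different zinc finger stretch of chromosome 19, from ETV2 to ZNF565 (35641745 to 36246257, median 1.42), had 20 higher in UM-UC-3 and 0 in T24.

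Markers of other cell types were mostly at or near 0. Of 14 markers of blood, immune, endothelial, fibroblast and muscle cells, 11 were under 1 RPKM in all 6 libraries, the exceptions being CD68, ACTA2 and HBA1, and CD3E, which defines T cells, was at 0 counts in all 6. Of the 6 tested, 2 were higher in UM-UC-3 and 1 in T24 (median 0.84). PDGFRB was at 0.24, 0.17 and 0.18 RPKM in UM-UC-3 and 0.02, 0.06 and 0.10 in T24 (adjusted p = 0.00421), PECAM1 had 5, 3 and 16 counts against 2, 3 and 2 (adjusted p = 0.0352, lost without UM-UC-3 replicate 3 and without each T24 replicate), and ACTA2 was higher in T24 (adjusted p = 0.0113, lost without T24 replicate 3). The summed level of the list was 136 to 166 RPKM in UM-UC-3 and 22.2 to 126 in T24. Most of it came from CD68, a lysosomal protein gene, at 126, 135 and 160 RPKM against 15.7, 121 and 16.3 (adjusted p = 0.122; without T24 replicate 2, log2 difference 3.10, adjusted p = 0.005).

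Ribosomal protein genes leaned to UM-UC-3 by small differences. Of 74 tested, 24 were higher there and 6 in T24 (median 0.34). The 24 became 13 without UM-UC-3 replicate 3 and 9 without T24 replicate 2, and the 6 became 2 or 3 without UM-UC-3 replicate 1 or 2 or T24 replicate 1 or 3. Their summed level was 20740 to 26410 RPKM in UM-UC-3 and 15610 to 21750 in T24. RPL4 was at 730, 643 and 908 RPKM in UM-UC-3 and 236, 122 and 242 in T24 (log2 difference 1.95, SE 0.28, adjusted p = 3.7e-05). RPL35 was the reverse, at 341, 306 and 300 RPKM in UM-UC-3 and 745, 553 and 709 in T24 (-1.05, SE 0.21, adjusted p = 0.000699). RPL4 lies in the stretch of chromosome 15 from MEGF11 to KIF23, where 23 of 25 neighbouring genes were higher in UM-UC-3 and 1 in T24. Ribosomal protein genes have many processed pseudogenes, so their counts are uncertain where reads are shared.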

How the data were processed

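RNA was sequenced from all 18 libraries with a stranded mRNA kit carrying 8 random bases as molecular identifiers, on a NovaSeq instrument. Per the labels and the submitters' processing notes, the authors trimmed reads with Trimmomatic 0.36, aligned them to GRCh38 with STAR 2.5.3, counted them per gene with featureCounts (Subread 1.5.1) and deposited raw counts and RPKM, which divides counts by gene length and library depth. The annotation release, strand setting and collapsing of identifiers are not given in the sources used here. In the count columns 73.4% of counts from 1 to 20 were even, and whether both mates of a fragment were counted is not given in the sources used here. Counting intervals cover counting error only and would be too narrow if both mates were counted. The bounds given as at least a fold, which rest on a floor of 3 counts, would then be too high. Replicates of a line differed beyond sampling noise.

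Raw counts were fitted with edgeR 4.0.16 (TMM, filterByExpr, quasi-likelihood test) in R 4.3.3, in 1 model of 18 libraries with 6 groups (12 residual degrees of freedom). The replicate numbers did not enter the model. Same-numbered libraries of a line deviated together (block correlation 0.523), so the 12 overstate the independent information on the spread. Alternatives used limma 3.58.1 and DESeq2 1.42.0. P-values were adjusted over all 20144 genes tested, and autosomal genes were counted. RPKM are printed as levels and were not tested. The script was tested on simulated data. Named genes were the 10 protein-coding genes per direction with the widest differences among those called in the fit and without each control library, at a mean of 10 RPKM or more in the higher line; up to 4 called members per direction of each list; the 5 per direction with the highest counts among those absent from 1 line; runs of silent neighbours; and ACAT1, CDKN2A, HRAS, MYC, CDH1, CDH2, VIM, ZEB1, GATA3, PPARG, TP63, EGFR and FGFR3. Some genes that this rule names, and results that need them, are not reported here. Members and lists were chosen with earlier results of these data known, and further genes were added after their values were seen.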

Additional observations from a re-analysis of the deposited data

How the results depend on the processing

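Under 14 alternatives the number of called autosomal genes (8572) stayed within 1.5 times, at 9207 with DESeq2, 8531 with its size factors in edgeR, 8601 with upper-quartile scaling, 8588 with no filter on low counts, 8479 with autosomal genes alone, 7303 with the 6 control libraries alone and 7276 to 7851 with 1 control library left out. The share higher in UM-UC-3 lay between 46.5% and 53%. Of 279 named genes, 0 changed direction and 48 lost their call in at least 1 setting. Of the 62 list counts, 59 of 868 values moved by more than 1.5 times, 43 of them in fits that left out a library or used the 6 control libraries alone. Without the filter on low counts, members higher in UM-UC-3 went from 8 to 5 for the PI3K list, 5 to 12 for S and G2/M genes, 2 to 4 for cytokines and 1 to 9 for the ATF4 list, and members higher in T24 went from 3 to 5 for keratins, 1 to 2 for S and G2/M genes, 5 to 15 for the ATF4 list and 4 to 7 for glycolysis. With the 6 control libraries alone there were 5 PI3K genes and 1 marker of other cell types higher in UM-UC-3 and 1 metallothionein higher in T24. Upper-quartile scaling called 7 ketone body and thiolase genes higher in UM-UC-3, and DESeq2 called 1 marker of other cell types higher in UM-UC-3. The causes were not tested.

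The replicate numbers did not pair the lines, since the deviations of same-numbered libraries of UM-UC-3 and T24 had correlations of 0.02, -0.19 and 0.06. A replicate block shared by both lines called 9284 genes (with 5 keratins higher in T24, and 7 ketone body and 3 ATF4 genes higher in UM-UC-3), and limma voom with a replicate block within each line called 8648 (8 S and G2/M and 4 ATF4 genes higher in UM-UC-3). For the difference between siRNA and control libraries, edgeR with the number within each line as added terms called 20 genes against 0 without, and limma voom called 0. Counts of 0 limit a gene only to the bounds given.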
